A study of Homo sapiens with 8 samples.

Results

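The S100 proteins described here are encoded by 10 genes, S100A2, S100A4, S100A6, S100A7, S100A8, S100A9, S100A10, S100A11, S100A14 and S100A16, chosen by name from the 25369 genes of the deposited expression table. Their transcripts were counted by RNA sequencing of EPC2-hTERT, a single line of human esophageal keratinocytes immortalized with telomerase and labelled as wild type. All cultures stratified on permeable supports in high-calcium medium and then at an air-liquid interface. The 4 vehicle libraries came from cultures given DMSO, and the 4 DMOG libraries from cultures given 1 mM dimethyloxalylglycine, a 2-oxoglutarate analog that blocks prolyl hydroxylases, for 18 h before harvest. Whether replicates were separate cultures is not in the labels, and a p-value therefore reflects no more than the spread among the libraries, part of which may be technical.

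S100 proteins are small calcium-binding proteins with paired EF-hand motifs. Most act as dimers that bind a partner protein when calcium rises, whereas S100A10 has lost calcium binding and is held constantly by annexin A2. Stratified squamous epithelium is a rich source of several members, and their genes lie close together in the epidermal differentiation region of chromosome 1. Some leave the cell and act as alarmins or withhold metal ions from microbes, as calprotectin, the complex of S100A8 and S100A9, does.

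Recovered reads in genes ranged from 31245695 to 39931833 per library, and between 10558 and 11242 genes per library reached 1 RPKM (reads scaled to gene length and to the library total). DMOG replicate 2 stood near the vehicle libraries. Principal component 1, which held 65.5% of the variance, placed the vehicle libraries between -23.4 and -21.2, DMOG replicate 2 at -17.1 and the other DMOG libraries between 14.9 and 56.3. PGK1, a glycolytic target of hypoxia-inducible factor (HIF), was at 115 RPKM in DMOG replicate 2, against 101 to 127 RPKM with vehicle and 317 to 455 RPKM in the other DMOG libraries. CA9, ENO2 and NDUFA4L2, the other genes set to check the treatment, were higher in DMOG replicate 2 than in any vehicle library. They stood there at 2.56, 1.93 and 48.1 RPKM, against at most 1.295, 1.91 and 23.9 RPKM with vehicle. The other DMOG libraries held at least 9.97, 23.7 and 87.8 RPKM. The tests are therefore given for all 8 libraries and for the 6 libraries with replicate numbers 1, 3 and 4, which are also those that enter the authors' own comparison. That choice may itself rest on measured values, for which p-values over the 6 libraries make no allowance.

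Transcripts of 8 of the 10 genes were abundant and those of the other 2, S100A7 and S100A4, were far lower than these. S100A9 averaged 10592 ± 1669 RPKM with vehicle (SD, n = 4) and ranked at place 2 of the 25369 genes by that mean. S100A8, its partner in calprotectin, followed at 3834 ± 433 RPKM and S100A11, an annexin A1 partner, at 2449 ± 209 RPKM. S100A14 (1598 ± 127 RPKM), S100A16 (1266 ± 214 RPKM), S100A6 (1068 ± 78.9 RPKM), S100A2 (833 ± 139 RPKM) and S100A10 (724 ± 107 RPKM) followed in that order. In this order the vehicle ranges of S100A14 and S100A16, of S100A16 and S100A6, of S100A6 and S100A2, and of S100A2 and S100A10 overlapped. S100A7, or psoriasin, averaged 24.7 ± 17.8 RPKM, and S100A4, better known from motile mesenchymal cells, 10.2 ± 3.68 RPKM, and their vehicle ranges overlapped too.

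**Figure D1:**
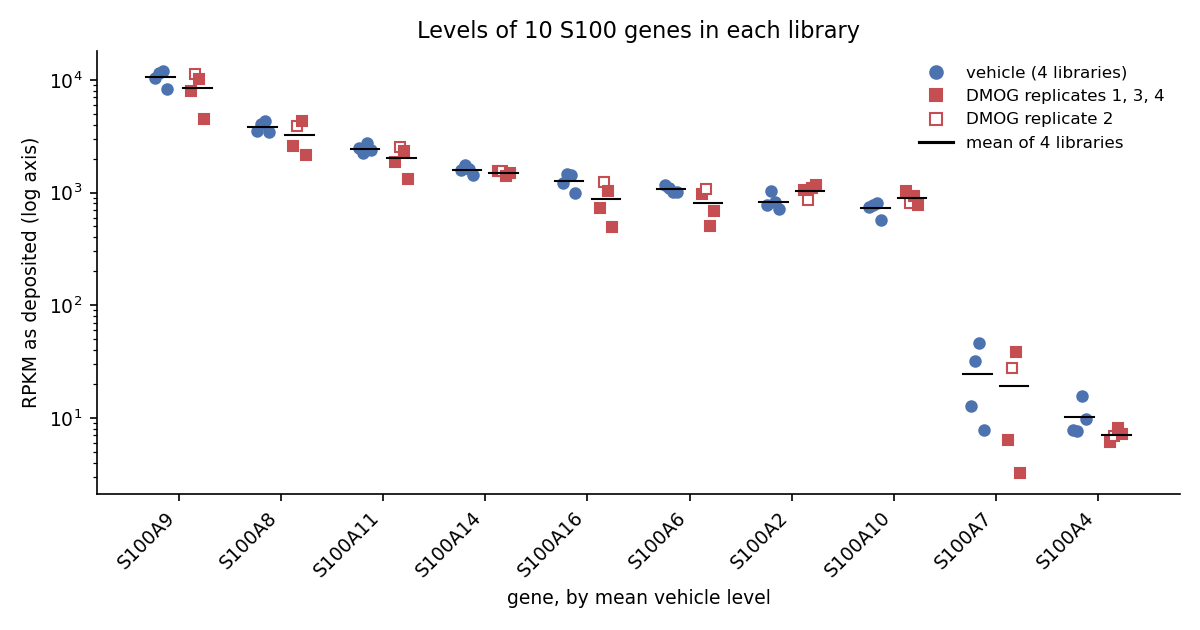
Levels of the 10 genes in each library, as deposited RPKM on a log axis, with vehicle as circles, DMOG as squares (replicate 2 open) and bars at the means of 4 libraries. S100A9 and S100A8 lead, 8 genes lie at 491 RPKM or more in every library, and S100A7 and S100A4 reach at most 46.2 RPKM.

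The 10 genes together held 4.25% to 5.56% of the summed RPKM of a vehicle library and 2.93% to 5.18% of that of a DMOG library. The lowest share belonged to DMOG replicate 4, and the groups overlapped. The means were 5.02% ± 0.58 and 4.27% ± 1.02 (SD, n = 4), a difference that did not pass the exact permutation test (two-sided p = 0.257, smallest possible 0.0286). Over the 6 libraries they were 4.91% ± 0.66 and 3.97% ± 1.01 (n = 3, exact permutation p = 0.3, smallest possible 0.1). S100A8 and S100A9 made up 53.0% to 66.5% of what the 10 genes held.

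All 10 genes passed the filter of 1 RPKM in at least 4 libraries, and 2 of them, S100A2 and S100A10, were higher with DMOG in the 6-library comparison. Fold changes are DMOG minus vehicle on log2(scaled RPKM + 1), where each library is scaled by a median-ratio factor, and the tests are limma-trend with Benjamini-Hochberg adjustment over 11122 genes and a threshold of 0.05. Over the 6 libraries, 2 of 10 genes were called higher and 0 lower, against 13.7% and 16.1% of all genes tested. These counts among 10 genes lie near that background and are read as values of single genes. At an unadjusted p under 0.05 the counts were also 2 and 0, against 21.6% and 23.3% of all genes, and limma-voom on recovered reads gave 2 and 0. RPKM as deposited gave 1 (S100A2) and 0, against 6.13% and 34.5%, and a fit with the replicate number as a block gave 2 and 1, against 19.6% and 21%. Over all 8 libraries limma-trend called 0 of the 10 genes in either direction, as it called 0% of all genes. There the unadjusted p was under 0.05 for the same 2 genes, both higher, against 14% of genes higher and 16.3% lower, and limma-voom also called 0. The median log2 fold change of the 10 genes was -0.14 over 8 libraries and -0.19 over 6, with 0.0017 and -0.00014 for all genes. With RPKM as deposited the medians were -0.35 and -0.50, with -0.18 and -0.26 for all genes.

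**Figure D2:**
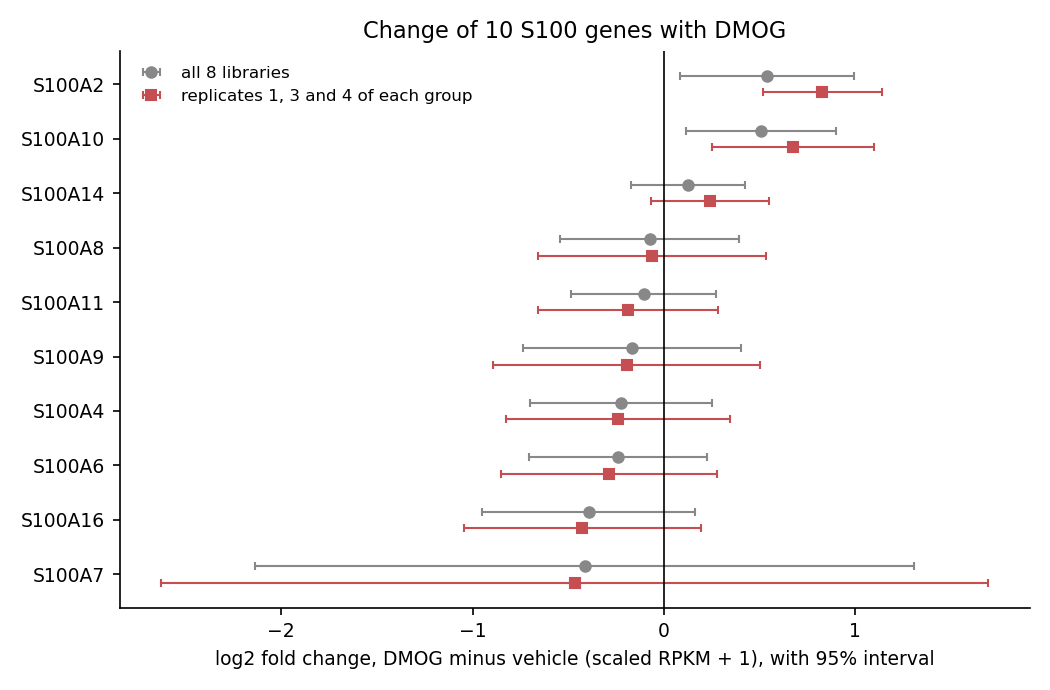
Log2 fold change of each gene, DMOG minus vehicle on scaled RPKM + 1, with 95% intervals from limma-trend, for all 8 libraries (circles) and for replicates 1, 3 and 4 of each group (squares). S100A2 and S100A10 stand to the right of 0 in both fits, and the interval of S100A7 is the widest.

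S100A2, a p63-responsive gene that marks basal cells of squamous epithelium, rose the most. It lies at chromosome 1, 153533585 to 153538306, on the minus strand (hg19, as the deposited table lists it). Its levels were 768, 1032, 816 and 715 RPKM in vehicle replicates 1 to 4 and 1052, 852, 1098 and 1158 RPKM in DMOG replicates 1 to 4. Vehicle replicate 2 was the highest of its group and DMOG replicate 2 the lowest of its own, so that the groups overlapped through these libraries. Without them every DMOG library lay above every vehicle library, before and after scaling, as it did for 24.7% of all genes on the scaled values. Over the 6 libraries the mean went from 766 ± 50.4 to 1103 ± 53.6 RPKM as deposited (SD, n = 3). On scaled values the log2 fold change was 0.83 ± 0.13 (SE, 95% interval 0.51 to 1.14, limma-trend adjusted p = 0.00833). Over all 8 libraries it was 0.54 ± 0.20 (adjusted p = 0.131), and 0.69 (adjusted p = 0.0216) once DMOG replicate 2 alone was left out. With RPKM as deposited the 6-library value was 0.53 (adjusted p = 0.0105). The change held past the threshold when any 1 of the 6 libraries was left out, with adjusted p from 0.00476 to 0.0476.

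S100A10, also called p11, binds annexin A2 and brings it to the plasma membrane, where the complex is a receptor for plasminogen. Its gene is at chromosome 1, 151955386 to 151966714, minus strand (hg19). Vehicle replicates 1 to 4 held 743, 779, 807 and 568 RPKM and DMOG replicates 1 to 4 held 1026, 815, 936 and 771 RPKM. DMOG replicate 4 lay within the vehicle range before scaling. After scaling every DMOG library of the 6 lay above every vehicle library, as for 24.7% of all genes. The 6-library mean went from 706 ± 124 to 911 ± 129 RPKM as deposited (SD, n = 3). On scaled values the log2 fold change was 0.68 ± 0.18 (SE, 95% interval 0.25 to 1.10, limma-trend adjusted p = 0.0311). Over all 8 libraries the value was 0.51 ± 0.17 (adjusted p = 0.119), and 0.60 (adjusted p = 0.0304) without DMOG replicate 2. The 6-library call was lost with RPKM as deposited (0.37, adjusted p = 0.125), without the filter on low values (adjusted p = 0.058), and on leaving out vehicle replicate 1 (0.0926), DMOG replicate 1 (0.11) or vehicle replicate 4 (0.0941).

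ANXA2, which encodes the annexin A2 partner of S100A10, moved with it. It was at 1430, 1701, 1629 and 1144 RPKM in vehicle replicates 1 to 4 and at 1999, 1496, 1764 and 1484 RPKM in DMOG replicates 1 to 4, so the groups overlapped. The 6-library log2 fold change was 0.63 ± 0.18 (limma-trend adjusted p = 0.0404), and over all 8 libraries it was 0.41 ± 0.19 (adjusted p = 0.182). That call too was lost with RPKM as deposited (adjusted p = 0.174), without the filter (0.0708), and on leaving out DMOG replicate 1 (0.135), vehicle replicate 4 (0.127) or vehicle replicate 1 (0.12), and it did not survive the addition of vehicle replicate 2 (0.0669). The ratio of S100A10 to ANXA2, which no library scaling can move, was 0.520, 0.458, 0.495 and 0.496 with vehicle and 0.513, 0.545, 0.530 and 0.520 with DMOG. Vehicle replicate 1 lay among the DMOG libraries, and the rest of the vehicle group lay below them. The difference in log2 ratio was 0.10 over all libraries (two-sided exact permutation p = 0.0857, smallest possible 0.0286). Among the 8 fits that each left out 1 library, the one without vehicle replicate 1, the library out of order, gave 0.13 with the smallest p possible there (exact permutation p = 0.0286), and the others did not pass. Over the 6 libraries the difference was 0.049 (exact permutation p = 0.3), and 0.071 without vehicle replicate 1 (exact permutation p = 0.1, again the smallest possible). Over the 8 libraries ANXA2 was the gene whose scaled log2 profile was most like that of S100A10, among 11098 genes compared, with a root mean square difference of 0.072 after centring. The next was ANXA5, another annexin, at 0.086.

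**Figure D3:**
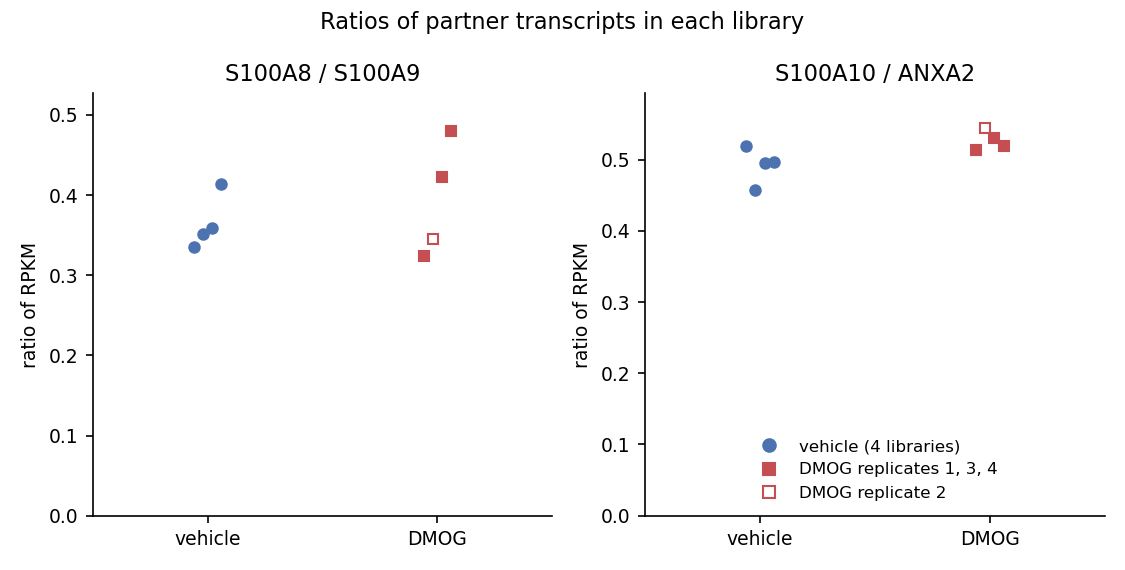
Ratio of RPKM within each library for the partner pairs S100A8 to S100A9 and S100A10 to ANXA2, with vehicle as circles and DMOG as squares (replicate 2 open). S100A8 to S100A9 runs from 0.324 to 0.480 and S100A10 to ANXA2 from 0.458 to 0.545, and the groups overlap in both.

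S100A4, S100A7, S100A9 and S100A16 were lower with DMOG at every replicate number, as were S100P and S100A13 outside the 10 genes. The share of all genes so ordered was not counted. Promoter windows are printed for the 2 genes that were called, for S100A16 and for S100A9, the most abundant. Each holds 300 bases, 250 before to 50 after an annotated start, from RefSeq on GRCh38.p14, and all 10 genes matched, with 14 windows between them. All are printed 5′ to 3′ on the strand of the gene, S100A9 on the plus strand and the others on the minus strand. Capitals mark ACGTG and GCGTG, the core letters of the HIF response element, and TGANTCA, the AP-1 site, each searched on both strands, so that CACGT marks an ACGTG on the opposite strand. The windows are chr1:153563838-153564137 and, upstream of it, chr1:153565795-153566094 for S100A2, chr1:151993810-151994109 for S100A10, chr1:153609306-153609605 for S100A16 and chr1:153357604-153357903 for S100A9.
S100A2: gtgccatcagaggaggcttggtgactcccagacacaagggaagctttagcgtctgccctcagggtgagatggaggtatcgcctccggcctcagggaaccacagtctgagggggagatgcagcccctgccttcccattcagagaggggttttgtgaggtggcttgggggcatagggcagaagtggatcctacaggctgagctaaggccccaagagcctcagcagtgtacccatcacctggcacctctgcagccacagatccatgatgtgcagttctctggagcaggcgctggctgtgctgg
S100A2 upstream: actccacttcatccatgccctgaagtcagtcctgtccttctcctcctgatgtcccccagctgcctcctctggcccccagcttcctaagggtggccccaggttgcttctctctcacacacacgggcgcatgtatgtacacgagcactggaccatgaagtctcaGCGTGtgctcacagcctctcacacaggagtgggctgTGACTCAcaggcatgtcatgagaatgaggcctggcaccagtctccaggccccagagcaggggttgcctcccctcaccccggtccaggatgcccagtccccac
S100A10: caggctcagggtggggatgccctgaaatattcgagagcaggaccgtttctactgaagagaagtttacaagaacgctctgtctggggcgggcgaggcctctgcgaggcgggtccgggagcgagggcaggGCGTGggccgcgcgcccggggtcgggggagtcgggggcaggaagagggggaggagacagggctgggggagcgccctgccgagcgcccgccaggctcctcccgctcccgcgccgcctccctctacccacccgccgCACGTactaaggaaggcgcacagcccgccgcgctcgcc
S100A16: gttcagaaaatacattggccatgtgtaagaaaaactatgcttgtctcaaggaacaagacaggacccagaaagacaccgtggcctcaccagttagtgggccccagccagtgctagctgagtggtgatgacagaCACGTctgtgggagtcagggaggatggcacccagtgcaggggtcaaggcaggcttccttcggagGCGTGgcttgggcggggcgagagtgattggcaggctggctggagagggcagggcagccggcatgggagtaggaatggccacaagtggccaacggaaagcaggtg
S100A9: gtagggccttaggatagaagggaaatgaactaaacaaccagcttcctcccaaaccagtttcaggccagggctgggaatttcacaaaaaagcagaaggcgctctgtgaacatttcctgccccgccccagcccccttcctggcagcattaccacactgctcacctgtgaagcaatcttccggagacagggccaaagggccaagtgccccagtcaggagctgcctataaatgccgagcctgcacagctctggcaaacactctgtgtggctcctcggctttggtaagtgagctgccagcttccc

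The upstream window of S100A2 held 1 GCGTG and 1 TGANTCA, and the other window of that gene held neither. The printed windows of S100A10 and S100A16 each held 1 ACGTG and 1 GCGTG. A second window of S100A16, not printed, lies upstream of the printed one at chr1:153613088-153613387 and held none of the motifs. Nor did the S100A9 window. Which annotated start the cultures used was not tested. ACGTG or GCGTG was found in 5 of the 14 windows, for 5 of the 10 genes (S100A2, S100A6, S100A10, S100A11 and S100A16), and in 48.4% of 35116 windows of the same length. TGANTCA was found in 1 of the 14 windows and in 7.71% of the 35116. The genes with a HIF core in their window included both called genes and S100A6, S100A11 and S100A16, which were not called. A match is a description of the letters only.

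Calprotectin transcripts did not pass the test. S100A9, at chromosome 1, 153330330 to 153333503, plus strand (hg19), was at 10476, 11586, 12019 and 8286 RPKM with vehicle and 7991, 11354, 10279 and 4507 RPKM with DMOG. DMOG replicate 4 was the lowest library, and the groups overlapped. The log2 fold change was -0.17 ± 0.25 over 8 libraries (95% interval -0.74 to 0.40, limma-trend adjusted p = 0.659) and -0.19 ± 0.30 over 6 (-0.89 to 0.50, adjusted p = 0.633). S100A8, at 153362508 to 153363664 on the minus strand, was at 3517, 4076, 4320 and 3425 RPKM with vehicle and 2585, 3919, 4345 and 2163 RPKM with DMOG. DMOG replicate 3 held the highest S100A8 level of all libraries and DMOG replicate 4 the lowest. The log2 fold change was -0.075 ± 0.21 over 8 libraries (adjusted p = 0.817) and -0.063 ± 0.25 over 6 (adjusted p = 0.862). The ratio of S100A8 to S100A9 was 0.336, 0.352, 0.359 and 0.413 with vehicle and 0.324, 0.345, 0.423 and 0.480 with DMOG. The lowest and the highest ratio were both in the DMOG group. The difference in log2 ratio was 0.092 over 8 libraries and 0.13 over 6, each with an exact permutation p of 0.6, and it was -0.010 over 7, without DMOG replicate 4.

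S100A16 and S100A14 are neighbours, 1217 bases apart on the minus strand, and are both expressed widely in epithelia. S100A16, at 153579367 to 153585514, was at 1204, 1448, 1422 and 991 RPKM with vehicle and 735, 1231, 1028 and 491 RPKM with DMOG. The lowest 2 libraries were DMOG replicates 4 and 1, and the groups overlapped. The log2 fold change was -0.39 ± 0.25 over 8 libraries (limma-trend adjusted p = 0.285) and -0.43 ± 0.26 over 6 (95% interval -1.05 to 0.19, adjusted p = 0.243). Same-numbered libraries differed by -0.42, -0.30, -0.26 and -0.59 in log2 for numbers 1 to 4, lower with DMOG in 4 of 4. This was also so for S100A4, S100A7 and S100A9. With the replicate number as a block, the 6-library value of S100A16 was -0.43 ± 0.12 (adjusted p = 0.0366), which passed the threshold, as did 21% of all genes in the lower direction. S100A14, at 153586732 to 153588808, was at 1571, 1749, 1630 and 1444 RPKM with vehicle and 1555, 1556, 1404 and 1484 RPKM with DMOG, with overlap of the groups. Its log2 fold change was 0.12 ± 0.13 over 8 libraries (adjusted p = 0.525) and 0.24 ± 0.13 over 6 (adjusted p = 0.192), but -0.089 and -0.063 with RPKM as deposited, so its direction depended on the scaling.

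**Figure D4:**
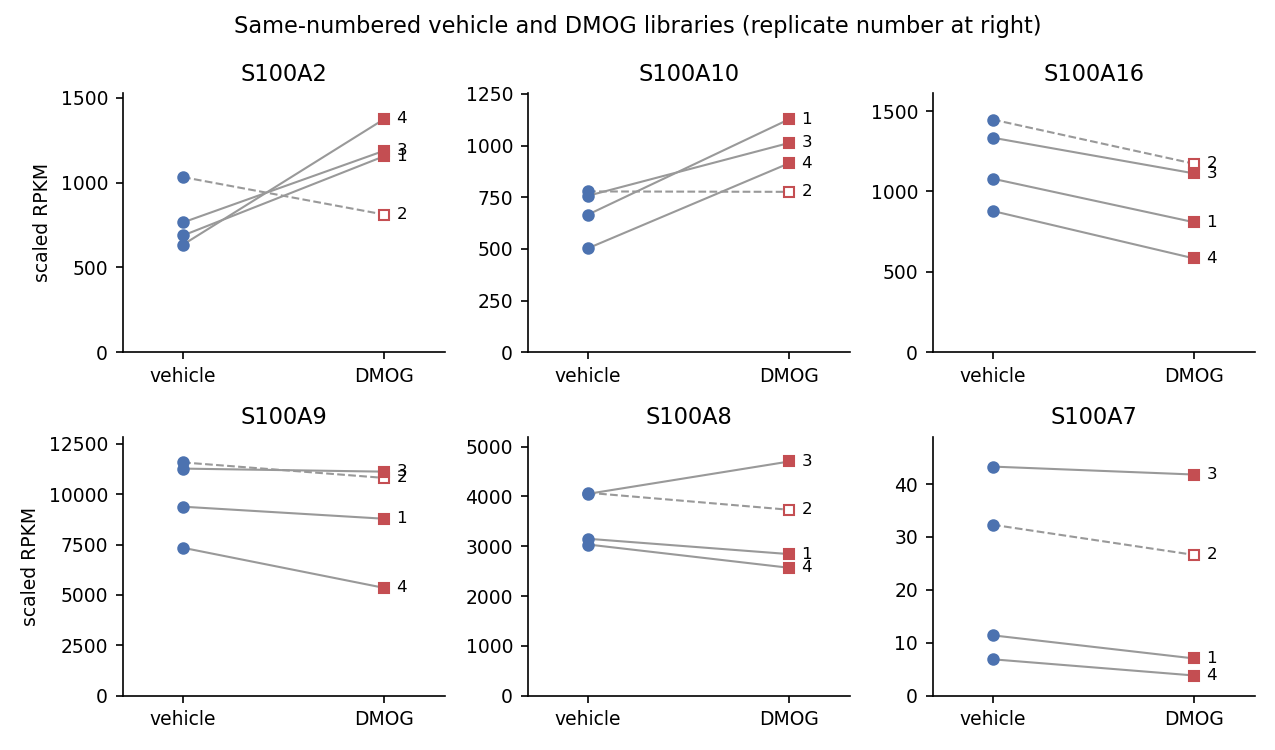
Scaled RPKM of 6 of the genes, with lines joining the vehicle and DMOG libraries of the same replicate number, printed at the right (replicate 2 open and dashed). S100A2 and S100A10 are higher with DMOG for numbers 1, 3 and 4, and S100A16, S100A9 and S100A7 are lower with DMOG for all 4 numbers.

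S100A11, at 152004982 to 152009511, was at 2229 to 2727 RPKM with vehicle and 1307 to 2561 RPKM with DMOG. S100A6, or calcyclin, at 153507076 to 153508717, was at 1001 to 1161 RPKM with vehicle and 509 to 1068 RPKM with DMOG. For both genes the groups overlapped over 8 libraries, and the lowest library was a DMOG one (replicate 4 for S100A11, replicate 3 for S100A6). Over the 6 libraries every DMOG library lay below every vehicle library as deposited, but the groups overlapped after scaling. The share of all genes so ordered as deposited was not counted. Log2 fold changes over 6 libraries were -0.19 ± 0.20 for S100A11 (limma-trend adjusted p = 0.49) and -0.29 ± 0.24 for S100A6 (adjusted p = 0.383). Over 8 libraries they were -0.11 ± 0.17 (adjusted p = 0.677) and -0.24 ± 0.21 (adjusted p = 0.424). With RPKM as deposited the 6-library values were -0.49 (limma-trend adjusted p = 0.103) and -0.59 (adjusted p = 0.0766).

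S100A7, an antimicrobial protein of squamous epithelium, varied the most between libraries. Its gene, at 153430220 to 153433137, was at 12.7, 32.3, 46.2 and 7.76 RPKM in vehicle replicates 1 to 4 and at 6.39, 27.9, 38.7 and 3.21 RPKM in DMOG replicates 1 to 4, from 44 to 810 reads. Numbers 2 and 3 were high and numbers 1 and 4 low in both groups. Between its lowest and highest library the level differed 5.96-fold within vehicle and 12.1-fold within DMOG. The log2 fold change was -0.41 ± 0.76 over 8 libraries (limma-trend adjusted p = 0.722) and -0.47 ± 0.92 over 6 (95% interval -2.63 to 1.69, adjusted p = 0.713). Its same-numbered log2 differences were -0.63, -0.27, -0.050 and -0.71. With the replicate number as a block the SE was smaller. The values were then -0.41 ± 0.14 over 8 libraries (limma-trend adjusted p = 0.115) and -0.47 ± 0.15 over 6 (adjusted p = 0.0585), neither past the threshold. Reads of S100A7 and its near-identical copy S100A7A may have been split by the counting, and S100A7A itself did not pass 0.211 RPKM.

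S100A4, at 153516095 to 153518282, was at 7.75, 7.65, 15.5 and 9.84 RPKM with vehicle and 6.14, 6.9, 8.17 and 7.26 RPKM with DMOG, from 116 to 349 reads. Vehicle replicate 3 stood highest and the groups overlapped. The log2 fold change was -0.22 ± 0.21 over 8 libraries (limma-trend adjusted p = 0.465) and -0.24 ± 0.25 over 6 (adjusted p = 0.479).

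Other S100 genes outside these 10 were also measured. Of 11 such genes, 7 were above 0 in at least 1 library and 4 passed the filter. Over the 6 libraries limma-trend called 0 of the 4, against 13.7% of all genes higher and 16.1% lower. The unadjusted p was under 0.05 for 0 of the 4, against 21.6% and 23.3%. Over all 8 libraries 0 of the 4 were called, as were 0% of all genes. There the unadjusted p was under 0.05 for 0 of the 4, against 14% and 16.3%. So few genes are read as values of single genes. S100P, an ezrin-binding member on chromosome 4, was at 1549, 1428, 1676 and 1377 RPKM with vehicle and 1060, 1463, 1107 and 614 RPKM with DMOG. Over the 6 libraries its groups did not overlap, with DMOG below, as for 26.5% of all genes on the scaled values, and its log2 fold change was -0.47 ± 0.22 (limma-trend adjusted p = 0.142). It passed the threshold with RPKM as deposited (-0.77, limma-trend adjusted p = 0.0361), as did 34.5% of all genes in the lower direction. With the replicate number as a block it passed too (adjusted p = 0.0437), as did 21% of all genes in the lower direction. S100A12 was at 59.1 to 94 RPKM with vehicle and 35.7 to 117 RPKM with DMOG, S100A13 at 14.7 to 24.9 and 10.8 to 19.7 RPKM, and S100A3 at 1.99 to 2.88 and 1.84 to 2.78 RPKM. The values of S100A13 are uncertain, since it overlaps S100A1 and CHTOP. S100A1, S100A5 and S100A7A stayed below 0.25 RPKM in every library. S100A7L2, S100B, S100G and S100Z had 0 reads in all libraries, which allows up to 3 reads, or 0.0751 to 0.096 RPM (reads scaled to the library total alone), by counting error alone.

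Partners and receptors of S100 proteins include annexins, scaffolds, carriers and surface receptors. Of 17 such genes, 15 passed the filter, 7 were higher over the 6 libraries and 1 was lower, against 13.7% and 16.1% of all genes, with a median log2 fold change of 0.43 against -0.00014 for all genes. No test compared this list with other genes. AHNAK, a giant scaffold held by the S100A10 and annexin A2 complex, rose by 1.09 ± 0.21 (limma-trend adjusted p = 0.0127). ANXA6 rose by 1.07 ± 0.19 (adjusted p = 0.0103) and ANXA5 by 0.58 ± 0.14 (adjusted p = 0.024). FABP5, a fatty acid carrier that binds calprotectin, rose by 1.02 ± 0.25, CD36, a fatty acid receptor, by 0.76 ± 0.17, and RANBP9, a scaffold protein, by 0.43 ± 0.12. CD36 was low, at 0.738 to 1.47 RPKM with vehicle and 1.59 to 2.53 RPKM with DMOG. Its size of change depends on the pseudocount, with 1.04 over all 8 libraries at a pseudocount of 0.1, against 0.65. ANXA1, the S100A11 partner, was at 0.43 ± 0.25 (adjusted p = 0.229, or 0.0334 with the replicate number as a block). ANXA6 kept its call when any 1 of the 6 libraries was left out. Without vehicle replicate 1 the other higher calls, ANXA2 among them, were all lost (adjusted p from 0.0573 for AHNAK to 0.15 for RANBP9), and all but that of CD36 without vehicle replicate 4 (0.0559 for AHNAK to 0.127 for ANXA2). Leaving out DMOG replicate 1 also ended the calls of ANXA2, ANXA5 (0.0904) and RANBP9 (0.0902). FABP5, CD36 and RANBP9 lost theirs without vehicle replicate 3 (0.050005, 0.0537 and 0.102), RANBP9 without DMOG replicate 3 (0.0635), and FABP5 and RANBP9 without DMOG replicate 4 (0.0534 and 0.0647). RPKM as deposited ended the calls of ANXA5 (0.139) and RANBP9 (0.461), testing without the filter those of FABP5 (0.0525) and RANBP9 (0.0686), and adding vehicle replicate 2 that of RANBP9 (0.127). Over all 8 libraries 0 of the 15 were called and the median was 0.24, with an unadjusted p under 0.05 for 5 higher and 1 lower, against 14% and 16.3% of all genes. There the values were 0.81 ± 0.27 for AHNAK (limma-trend adjusted p = 0.119), 0.72 ± 0.26 for ANXA6 (0.124), 0.41 ± 0.16 for ANXA5 (0.133), 0.82 ± 0.26 for FABP5 (0.118), 0.65 ± 0.17 for CD36 (0.118) and 0.24 ± 0.15 for RANBP9 (0.303).

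Among 11 other antimicrobial and alarmin genes of epithelia, 9 passed the filter, 1 was higher and 2 were lower over the 6 libraries, with a median log2 fold change of -0.34. These shares stand beside 13.7% of all genes higher and 16.1% lower. With the replicate number as a block 1 was higher and 4 were lower, against 19.6% and 21% of all genes, the added calls being DEFB1, a beta-defensin (-0.52 ± 0.12, limma-trend adjusted p = 0.0239), and CAMP, the cathelicidin gene (-0.52 ± 0.11, adjusted p = 0.018). CAMP was low, at 0.807 to 3.24 RPKM with vehicle and 0.166 to 1.61 RPKM with DMOG. RNASE7, a secreted antimicrobial ribonuclease, rose by 0.75 ± 0.21 (limma-trend adjusted p = 0.038). IL1A fell by 0.80 on the log2 scale (SE 0.19, adjusted p = 0.0226) and IL1B by 1.76 (SE 0.42, adjusted p = 0.0238), the genes of the interleukin-1 alarmins. All 3 calls were lost without DMOG replicate 1 (adjusted p = 0.123, 0.0745 and 0.054), vehicle replicate 4 (0.124, 0.0783 and 0.0501) or vehicle replicate 1 (0.126, 0.0846 and 0.0842), that of IL1B without vehicle replicate 3 (0.0642) and that of RNASE7 without DMOG replicate 3 (0.0591). RNASE7 was also lost with RPKM as deposited (0.124) and without the filter (0.0744), IL1B without the filter (0.0542), and IL1A with vehicle replicate 2 added (0.0573). PI3 (-0.22 ± 0.25), SLPI (-0.20 ± 0.21) and LCN2 (-0.34 ± 0.26), abundant secreted antimicrobials, did not pass. Over all 8 libraries 0 of the 9 were called, with an unadjusted p under 0.05 for 1 higher and 1 lower, against 14% and 16.3% of all genes. There RNASE7 was at 0.69 ± 0.19 (limma-trend adjusted p = 0.118), IL1A at -0.46 ± 0.24 (0.218) and IL1B at -1.24 ± 0.50 (0.144).

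Markers of the epithelial layers and of other cells were set beside these values. In bulk samples, fewer cells of a type and less RNA per cell cannot be told apart. Of 8 basal keratinocyte markers 6 were higher and 0 lower over the 6 libraries, against 13.7% and 16.1% of all genes, with a median log2 fold change of 0.79. KRT5 rose by 0.75 ± 0.19 (limma-trend adjusted p = 0.0292), KRT14 by 0.69 ± 0.14 (0.0154), ITGA6 by 0.83 ± 0.12 (0.00635), ITGB4 by 0.83 ± 0.18 (0.0161), COL17A1 by 0.83 ± 0.23 (0.0352) and PDPN by 1.33 ± 0.31 (0.0207), whereas TP63, the basal transcription factor, was at -0.28 ± 0.11 (0.0859). The 8-library fit called 0 of the 8 markers (unadjusted p under 0.05 for 4 higher and 0 lower, against 14% and 16.3% of all genes). Their median there was 0.57, with limma-trend adjusted p of 0.223 for KRT5, 0.225 for KRT14 and 0.121 for ITGA6. The summed RPKM of the 8 ranged from 8667 to 16894 with vehicle and from 12018 to 14313 with DMOG. Vehicle replicate 2, which is not among the 6, held the highest KRT5 and KRT14 of all libraries (8148 and 7705 RPKM). For the other called markers, ITGA6, ITGB4, COL17A1 and PDPN, the highest library was a DMOG one. These marker calls are given without fits that left out 1 library. S100A2 moved in the same direction as these markers, and their part in its change was not tested. Of 10 suprabasal markers 2 were higher, CNFN (1.10 ± 0.24, adjusted p = 0.0172) and TGM1 (1.14 ± 0.21, adjusted p = 0.012), and 1 was lower, TGM3 (-0.92 ± 0.20, adjusted p = 0.0163), against the same 13.7% and 16.1%. With the replicate number as a block 4 were higher and 1 lower, against 19.6% and 21% of all genes. The 8-library fit called 0 of the 10, with an unadjusted p under 0.05 for 1 higher and 1 lower, against 14% and 16.3% of all genes. Their summed RPKM ranged from 7809 to 9378 with vehicle and from 6074 to 10855 with DMOG. S100A8, S100A9, S100A12 and S100A4 are also genes of leukocytes. Of 14 leukocyte markers only CD68 and CXCR2 reached 1 RPKM in any library, and CSF3R, ELANE, MS4A1 and CCR3 were at 0 in all. The summed level of the 14 was 45.1 to 76.2 RPKM with vehicle and 63.6 to 98.4 RPKM with DMOG, nearly all of it CD68, which was higher over the 6 libraries (0.79 ± 0.23, limma-trend adjusted p = 0.0388) but not past the threshold over 8 (adjusted p = 0.128). Of 6 fibroblast markers only COL1A1 reached 1 RPKM, higher over the 6 libraries (1.32 ± 0.17, limma-trend adjusted p = 0.00535) and not past the threshold over 8 (adjusted p = 0.118), with DCN and LUM at 0, and of 4 endothelial markers only VWF did, with CDH5 at 0. The summed levels of those lists were 8.76 to 14.1 and 1.44 to 1.97 RPKM with vehicle and 19.0 to 32.0 and 0.87 to 1.69 RPKM with DMOG.

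Position along the chromosome did not sort the genes by direction. The S100 genes of chromosome 1 span 151955386 to 153606568 (hg19), and within these 1651 kb the table lists 17 S100 genes and 49 others. The genes called higher were the first, S100A10, and S100A2, which lies 1578 kb further on. S100A11, 38.3 kb from S100A10, and S100A16, the member next after S100A2, both had negative values. Of the 49 other genes 29 passed the filter, 6 were higher and 0 lower over the 6 libraries, against 13.7% and 16.1% of all genes, with a median log2 fold change of 0.15. With the replicate number as a block 9 were higher and 1 lower, against 19.6% and 21%. The 8-library fit called 0 of the 29, with an unadjusted p under 0.05 for 7 higher and 0 lower, against 14% and 16.3% of all genes. The median there was 0.31. SRGAP2D, whose listed span covers the cluster, did not exceed 1.82 RPKM and was the only listed gene that overlapped any of the 10.

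**Figure D5:**
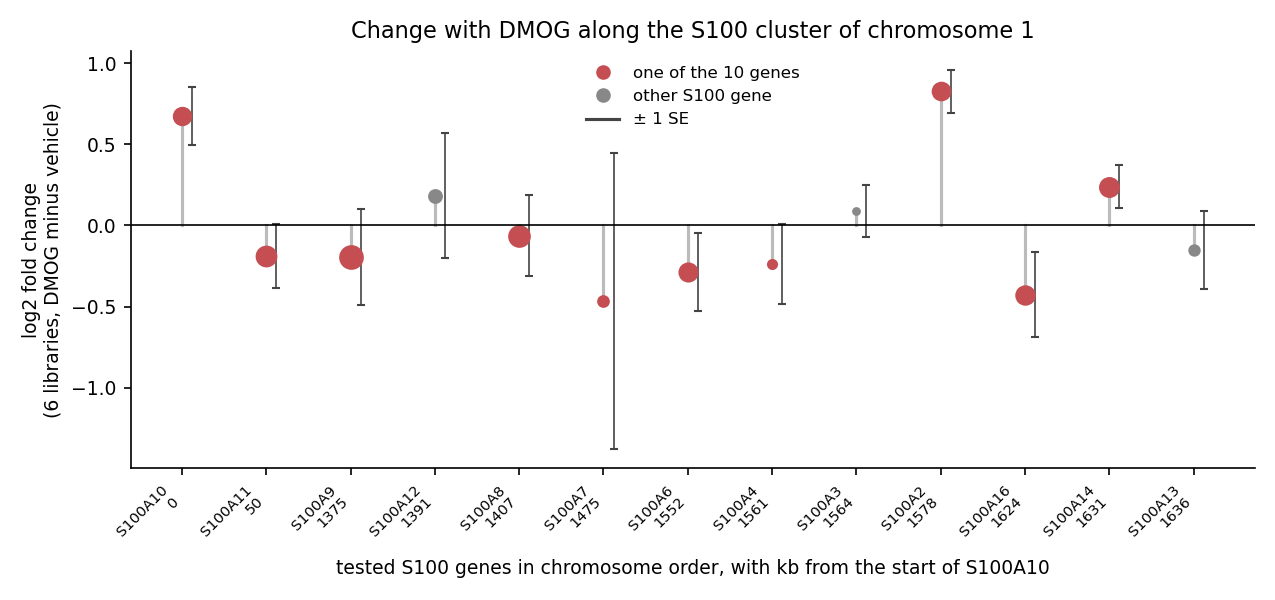
Log2 fold change over the 6 libraries, DMOG minus vehicle on scaled RPKM + 1, of the 13 tested S100 genes of chromosome 1 in chromosome order, with distance in kb from the start of S100A10, points sized by level and error bars of 1 SE. S100A10 at 0 kb and S100A2 at 1578 kb stand highest, among neighbours on either side of 0.

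Profiles over the 8 libraries were compared by the root mean square difference of centred log2(scaled RPKM + 1). In 3 pairs each member was the other's closest, S100A9 with S100A16 (0.14), S100A8 with S100A11 (0.15) and S100A2 with S100A10 (0.20). Genes outside the family lay closer still, as 14 other genes lay closer to S100A9 than S100A16 did, 67 closer to S100A8 than S100A11 did and 329 closer to S100A2 than S100A10 did. S100A7 was the farthest member from each of the other 9. Among all genes compared the closest to S100A2 was CKB (0.064), to S100A14 LMNA (0.049), to S100A11 CALU (0.060), to S100A16 SLC35C1 (0.068), to S100A8 MAST4 (0.10), to S100A9 LCN2 (0.11) and to S100A4 GULP1 (0.16). CEACAM5, the closest to S100A7, was 0.50 away. These are descriptions of 8 libraries that share their culture system, with no test.

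S100A2 had a log2 fold change of 0.83 in the authors' deposited table, with an adjusted p of 2.05e-07. S100A10 was at 0.67 (adjusted p = 0.00383) and ANXA2 at 0.62 (adjusted p = 0.00802) in the authors' deposited table. The other 8 genes had adjusted p from 0.148, for S100A14, to 0.965, for S100A8, in the authors' deposited table. The 6 libraries of that table are those of the 6-library fit, so the values are no independent evidence.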

How the data were processed

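RNA sequencing libraries of 4 vehicle and 4 DMOG cultures were used, grouped by the treatment and numbered by the titles in the labels. The authors deposited RPKM values for 25369 genes in a table named as raw counts, and no other sample's columns were used. Multiplying each RPKM by the listed length recovered whole reads for 100% of values above 0, within 0.01 reads. A deposited table with the authors' own comparison gives normalized group means on a signal scale, their ratio, its log2 value and p-values, per the file headers. The sources used here do not name its tool. Least squares on recovered reads gave weights of 0 to replicate 2 of both groups in its means.

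The submitters' processing notes name TopHat2 2.0.13, Bowtie2 2.2.3.0, HTSeq 0.6.1 and SAMtools 1.3.1, FastQC 0.11.5, bcl2fastq and Picard 1.129, with no role or order, and with builds GRCh37/hg19 and GRCh38/hg38. Gene positions are those of the deposited table, in hg19. The sources used here do not state how strand and multiply mapping reads were handled.

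RPKM were divided by median-ratio factors, and log2(value + 1) was fitted with limma-trend (limma 3.58.1, R 4.3.3, robust empirical Bayes, two-sided, Benjamini-Hochberg) for 11122 genes at 1 RPKM or more in at least 4 of 8 libraries. The pseudocount understates changes of low genes. Single ratios and shares were tested by exact permutation. The fit was tested on simulated data. Alternatives were RPKM as deposited, upper-quartile factors, a pseudocount of 0.1, no filter or 5 RPKM, limma-voom on recovered reads, no robust estimation, a replicate block and each library left out. Means with SD are RPKM as deposited.

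Deviations of same-numbered libraries from their group means correlated at 0.47, 0.40 and 0.34 for numbers 1, 3 and 4 over the 6 libraries. Those of unlike numbers correlated below 0. Centring on group means ties these values together, and whether the numbers pair the libraries was not tested. Over 8 libraries same-numbered deviations correlated at 0.073, -0.020, 0.53 and 0.24, and for numbers 1 and 2 other libraries correlated more highly. A chi-square per degree of freedom of 20.7 or more between any 2 libraries showed no copies. All 10 members are named, genes of the other lists where called in the 6-library fit, ANXA1, ANXA2 and other S100 genes at 1 RPKM in 4 libraries always, some genes not called as examples chosen after their values were seen, and the closest profile per member. The change of 1 partner gene and the closest profile of S100A6 are not reported here. The members and lists were chosen with earlier results of these data known.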

Additional observations from a re-analysis of the deposited data

How the results depend on the processing

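Leaving out 1 library at a time gave 0 to 2 members higher over 8 libraries and 1 to 2 over 6 libraries. Over the 6 libraries the count higher was 1 with RPKM as deposited and 1 with no filter, S100A10 being lost. With the replicate block the count lower over the 6 libraries was 1 (S100A16). It changed no other call of a member. The ratio of S100A8 to S100A9 over 8 libraries differed by -0.010 to 0.18 in log2 with 1 library left out, negative only without DMOG replicate 4, and that of S100A10 to ANXA2 by 0.065 to 0.13.

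With RPKM as deposited the direction turned for S100A14 (-0.089 over 8 libraries, -0.063 over 6), S100A3 (-0.10 and -0.12) and S100A12 (-0.11 over 6). With 1 library left out, log2 fold changes over 8 libraries ran from -0.93 to 0.12 for S100A7, -0.24 to 0.059 for S100A8, -0.31 to 0.069 for S100A9, -0.19 to 0.046 for S100A11 and -0.049 to 0.12 for S100A3. Over 6 libraries they ran from -0.45 to 0.029 for S100A4, -1.40 to 0.25 for S100A7, -0.33 to 0.11 for S100A8, -0.43 to 0.10 for S100A9, -0.36 to 0.0017 for S100A11, -0.026 to 0.18 for S100A3, -0.19 to 0.59 for S100A12 and -0.39 to 0.020 for S100A13. None of these was called, and the cause was not tested. Of the remaining single-gene values, 715 kept their direction and side of the threshold, 48 lost and 14 gained a call. S100A7 had 44 reads in its lowest library, as did S100A3. The SD of log2 values was 1.17 with vehicle and 1.48 with DMOG for S100A7, and 0.21 and 0.18 for S100A3. How much depth adds to the spread of S100A7 was not tested.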
